A study of Rattus norvegicus with 2 samples.

Results

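The aryl hydrocarbon receptor and 5 genes that work with it or answer to it were followed in RBL-2H3, a line of rat basophilic leukaemia cells that serves as a model of mast cells. The 6 genes are Ahr, Arnt, Ahrr, Tiparp, Nqo1 and Cyp1b1. They were chosen by name, for their relevance to the hydrocarbons carried on particles, and all 6 were found among the 15409 gene symbols listed. The treated library came from cells given PM2.5, fine particulate matter, plus IgE+DNP-HSA, the antibody and its antigen, which together crosslink the high-affinity receptor for IgE. The other library came from cells given normal saline. Each group is 1 library from 1 cell line, so nothing below could be checked against replicates or tested between conditions. The title of the treated sample carries the number 100, without a unit. The labels give no exposure time and no dose unit, and they do not state whether the saline cells were also sensitised with IgE. Particles and IgE with antigen were given together, so what follows the particles and what follows receptor crosslinking cannot be told apart.

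In its resting state the receptor is held in the cytosol by HSP90 and its co-chaperones. After it binds a ligand such as a polycyclic aromatic hydrocarbon it enters the nucleus, pairs with ARNT and binds xenobiotic response elements near genes for detoxifying enzymes. Among the genes it induces are its own brakes: AHRR competes with the receptor for ARNT and for DNA, and TIPARP is a mono-ADP-ribosyltransferase that modifies the receptor and promotes its breakdown. Mast cells are known to carry the receptor.

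The xenobiotic response element has the core GCGTG, and the stretch of 250 bases before the RefSeq start of each gene (build GRCr8) was searched for it on both strands. These are the promoter strings of the receptor's 4 target genes, shown because the results turn on how differently these targets stood. Capitals mark the core, written CACGC where it lies on the opposite strand. The stretches are chr2:152063519-152063768 on the plus strand for Tiparp, chr1:30821969-30822218 on the plus strand for Ahrr, chr6:21094315-21094564 on the plus strand for Cyp1b1 and chr19:52220268-52220517 on the minus strand for Nqo1. Each sequence reads 5′ to 3′ on the gene's strand.
Tiparp: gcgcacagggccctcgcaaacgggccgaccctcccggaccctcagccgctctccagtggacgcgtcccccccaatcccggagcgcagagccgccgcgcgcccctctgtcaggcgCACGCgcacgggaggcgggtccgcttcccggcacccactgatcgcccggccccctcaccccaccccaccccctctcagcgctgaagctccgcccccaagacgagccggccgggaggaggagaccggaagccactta
Ahrr: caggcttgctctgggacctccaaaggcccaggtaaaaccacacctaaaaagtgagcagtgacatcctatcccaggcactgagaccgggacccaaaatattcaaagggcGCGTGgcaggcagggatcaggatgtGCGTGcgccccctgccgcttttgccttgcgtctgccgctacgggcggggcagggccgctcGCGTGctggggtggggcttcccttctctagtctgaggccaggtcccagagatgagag
Cyp1b1: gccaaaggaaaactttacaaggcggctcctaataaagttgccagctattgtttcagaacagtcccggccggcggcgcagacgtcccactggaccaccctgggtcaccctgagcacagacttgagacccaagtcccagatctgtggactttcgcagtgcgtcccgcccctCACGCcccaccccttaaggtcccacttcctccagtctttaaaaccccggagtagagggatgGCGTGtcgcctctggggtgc
Nqo1: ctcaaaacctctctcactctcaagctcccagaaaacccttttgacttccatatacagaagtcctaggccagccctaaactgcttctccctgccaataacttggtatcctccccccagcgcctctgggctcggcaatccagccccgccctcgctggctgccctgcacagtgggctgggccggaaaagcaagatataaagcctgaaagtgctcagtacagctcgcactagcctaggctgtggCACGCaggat
The core occurs 3 times before Ahrr, 2 times before Cyp1b1 and once each before Tiparp and Nqo1. It is also found once before Arnt and not at all in the Ahr stretch. Of 27457 promoters of this length, 27.2% hold the core at least once and 8.59% at least 2 times. The longer form TNGCGTG, which contains the core, occurs once before Ahrr and once before Cyp1b1, and in 4.26% of all promoters. The antioxidant response element TGACNNNGC, through which NRF2 acts, was found in none of the 4 target promoters printed, 2 times before Arnt and in 10.2% of all promoters. These windows are rich in G and C, with 74.8% of bases before Tiparp, 62% before Ahrr, 59.2% before Cyp1b1 and 56.4% before Nqo1. A match is a string of letters and does not show that the receptor binds there, and a missing match covers this window alone.

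Summed over the 20367 transcripts listed, reads came to 3964955 in the treated library and 7279671 in the saline library. These sums stand for depth below, and the number of reads sequenced is not known from them. In normalised counts 1 read was worth 1.65 in treated cells and 0.867 in saline cells. Levels are normalised counts, which are not divided by transcript length, so that levels of different genes are not compared. A log2 fold is the treated over the saline value after 1 is added to each normalised count, and the 95% interval beside it is exact and covers counting error only. A gene is called higher or lower where the difference is at least 2-fold and 1 library has a normalised count of at least 1. By that rule 12.1% of 15097 symbols were higher and 19.1% lower in the treated library. Of the 4206 symbols with at least 500 reads over both libraries, 4.49% were higher and 5.52% lower. This second background fits 5 of the 6 genes, since Cyp1b1 had too few reads. Of the markers of the labelled cell type, 12 of 16 for mast cells and basophils had a row, among them Kit with 5440 reads in treated cells and 11946 in saline cells, and Ms4a2, the beta chain of the IgE receptor, with 1164 reads in treated cells and 1283 in saline cells. Of these 12 genes 2 were higher, the proteases Mcpt1 (log2 fold 1.11) and Cpa3 (1.74), and 1 lower, Hdc (-1.07), which makes histamine. The proteases Mcpt8, Mcpt2, Tpsab1 and Tpsb2 had no row. Of 10 macrophage markers 4 had a row, with a summed normalised count of 642 in treated cells and 1323 in saline cells. Csf1r made up most of that sum, with 286 reads in treated cells and 1401 in saline cells, while Lyz2 stood the other way, with 80 reads in treated cells and 57 in saline cells (log2 fold 1.40). Adgre1 had 23 reads in treated cells and 48 in saline cells, Cd68 had 0 reads in treated cells and 19 in saline cells, and C1qa, Mrc1 and Cd163 had no row; their part in the values below was not tested. Of 10 lymphocyte markers Lck alone had a row, and of 10 epithelial and fibroblast markers 5 had one, with a summed normalised count of 325 in treated cells and 235 in saline cells.

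The receptor was lower in the treated library, its partner did not differ beyond counting error, and its feedback genes stood on opposite sides of 0: Tiparp was higher, at a log2 fold of 1.47, and Ahrr was at -0.80, within 2-fold. Nqo1 did not differ beyond counting error either, and Cyp1b1 was near the limit of detection in both libraries. In RNA of whole cultures, fewer cells that express a gene and less of its RNA per cell cannot be told apart. All 6 genes passed the minimum, Cyp1b1 through its 4 saline reads alone. Of the 5 well covered genes, 1 was at least 2-fold higher, 1 at least 2-fold lower and 3 within 2-fold. Over all well covered symbols 4.49% were higher and 5.52% lower. The median log2 fold of the 5 genes was -0.01, against -0.07 over all well covered symbols.

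**Figure D1:**
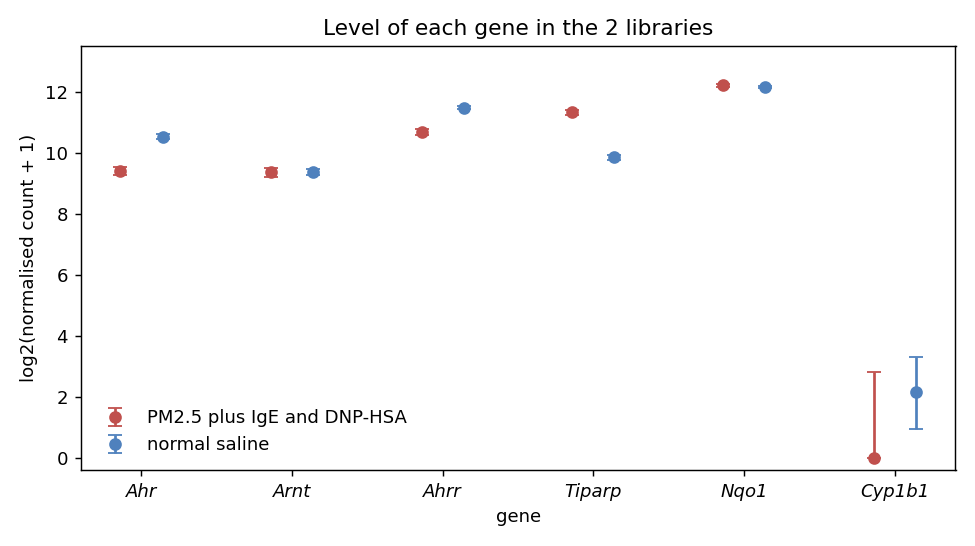
Level of each of the 6 genes as log2(normalised count + 1) in the treated library (red, left) and the saline library (blue, right); bars are exact 95% Poisson intervals and cover counting error only. The points of Ahr and Ahrr lie below, and that of Tiparp above, their saline points, Ahrr within 2-fold; the values of Arnt and Nqo1 lie close together, and the bars of Cyp1b1 overlap.

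Ahr (ENSRNOG00000004342) encodes the ligand-binding receptor itself. It had 411 reads in treated cells and 1705 in saline cells, a normalised count of 679 in treated cells and 1479 in saline cells. The log2 fold was -1.12 (interval -1.28 to -0.97), so the call of at least 2-fold rests on a value whose interval reaches inside 2-fold. Of the 4206 well covered symbols, 161 had a fold as low or lower, Ahr among them.

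Arnt (ENSRNOG00000031174) encodes the partner that the receptor needs to bind DNA, and that HIF1A also needs. It had 397 reads in treated cells and 762 in saline cells, with normalised counts of 656 in treated cells and 661 in saline cells. The log2 fold was -0.01 (interval -0.19 to 0.17), and the counting error allows a difference in either direction within those bounds. Relative to Arnt, the receptor's own message was scarcer in treated cells: the ratio of Arnt to Ahr reads was 0.966 in treated cells and 0.447 in saline cells, a 2.16-fold difference (interval 1.83 to 2.55).

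Arnt is the one gene of the set with several transcripts listed, all 3 of them protein coding. ENSRNOT00000044738 took 59.4% of its reads in the treated library (Wilson interval 54.5% to 64.2%) and 57.3% in the saline library (53.8% to 60.8%). ENSRNOT00000064442 took 28.2% in treated cells (24.0% to 32.8%) and 25.5% in saline cells (22.5% to 28.7%). The smallest, ENSRNOT00000091681, had 49 reads in treated cells and 131 in saline cells, or 12.3% (9.46% to 15.9%) in treated cells and 17.2% (14.7% to 20.03%) in saline cells, and its own log2 fold was -0.48 (interval -0.99 to -0.01). How reads shared by transcripts were counted is not stated, so these shares are estimates. A read counted for more than 1 transcript would also stand more than once in the Arnt sum. For all 3 transcripts the intervals of the libraries overlapped, but overlap does not compare the shares, and their difference was not tested.

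**Figure D2:**
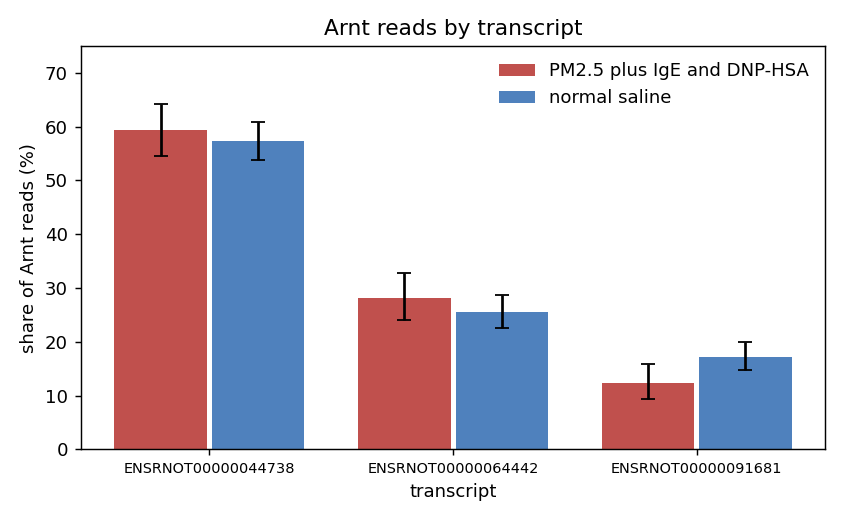
Share of Arnt reads (%) given to each of its 3 transcripts in the treated library (red, left) and the saline library (blue, right), with Wilson 95% intervals. The order of the transcripts is the same in both libraries, and the smallest takes 12.3% in treated and 17.2% in saline cells.

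Tiparp (ENSRNOG00000011238), the ADP-ribosyltransferase that restrains the receptor, showed the largest difference of the 5 well covered genes. It had 1547 reads in treated cells and 1061 in saline cells, so that it had more reads in the shallower library. Its normalised count was 2555 in treated cells and 920 in saline cells, a log2 fold of 1.47 (interval 1.36 to 1.59). Of the 4206 well covered symbols, 40 had a fold as high or higher, Tiparp among them.

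Ahrr (ENSRNOG00000014721), the repressor that competes with the receptor, stood the other way. It had 993 reads in treated cells and 3293 in saline cells, with normalised counts of 1640 in treated cells and 2856 in saline cells. The log2 fold was -0.80 (interval -0.90 to -0.70), below 0 beyond counting error but within 2-fold, and 437 well covered symbols, Ahrr included, had a fold as low or lower. In the promoters printed above, Ahrr has 3 copies of the element's core and Tiparp 1. Whether the number of copies bears on the folds was not tested.

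Nqo1 (ENSRNOG00000012772) encodes a quinone reductase that both the receptor and NRF2 can induce. It had 2873 reads in treated cells and 5239 in saline cells, with normalised counts of 4745 in treated cells and 4544 in saline cells. The log2 fold was 0.06 (interval -0.0036 to 0.13), so a difference above 0.13 on the log2 scale lies outside its counting error, though not outside the unknown spread between cultures.

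Cyp1b1 (ENSRNOG00000040287) encodes a cytochrome P450 that oxidises polycyclic hydrocarbons and is a classical target. It had 0 reads in the treated library, which allows up to 3 reads or a normalised count of 4.95, and 4 reads in the saline library, a normalised count of 3.47 (exact Poisson interval 0.945 to 8.88). Both values are at or under that floor, so no fold is given, and a difference was not detectable at this depth. Its close relatives Cyp1a1 and Cyp1a2, the best known targets of the receptor, had no row and are not analysed here.

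**Figure D3:**
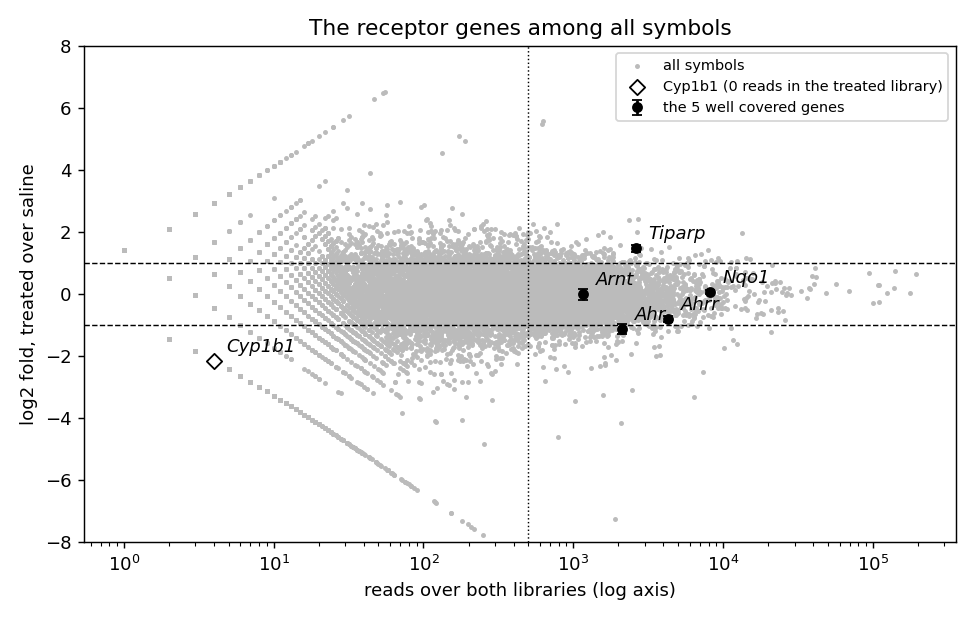
Log2 fold of the treated over the saline library against reads over both libraries (log axis) for all symbols past the minimum (grey), the 5 well covered genes (black, with exact 95% counting intervals) and Cyp1b1 (open diamond, plotted with 1 added to each count); dashed lines mark 2-fold, the dotted line 500 reads, and 8 symbols lie outside the plotted range. Tiparp lies above the upper dashed line, Ahr just below the lower one and Ahrr just inside it.

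Ratios between the genes do not depend on how the libraries are scaled to each other, and transcript length cancels when a ratio is compared between libraries. All 10 pairs of the 5 well covered genes were compared in this way, with exact conditional intervals that cover counting error only and were not adjusted over the pairs. In 9 of 10 pairs the interval left out equality, the exception being Nqo1 and Arnt with a 1.05-fold difference (interval 0.923 to 1.20). There were 1.56 Tiparp reads per Ahrr read in the treated library and 0.322 in the saline library, a 4.83-fold difference (interval 4.34 to 5.38). Tiparp against the receptor gave 3.76 reads per Ahr read in treated cells and 0.622 in saline cells, 6.05-fold apart (interval 5.28 to 6.93). Ahrr and Ahr both had folds below 0, and their ratio differed least among the 9: 2.42 Ahrr reads per Ahr read in treated cells and 1.93 in saline cells, a 1.25-fold difference (interval 1.10 to 1.43).

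**Figure D4:**
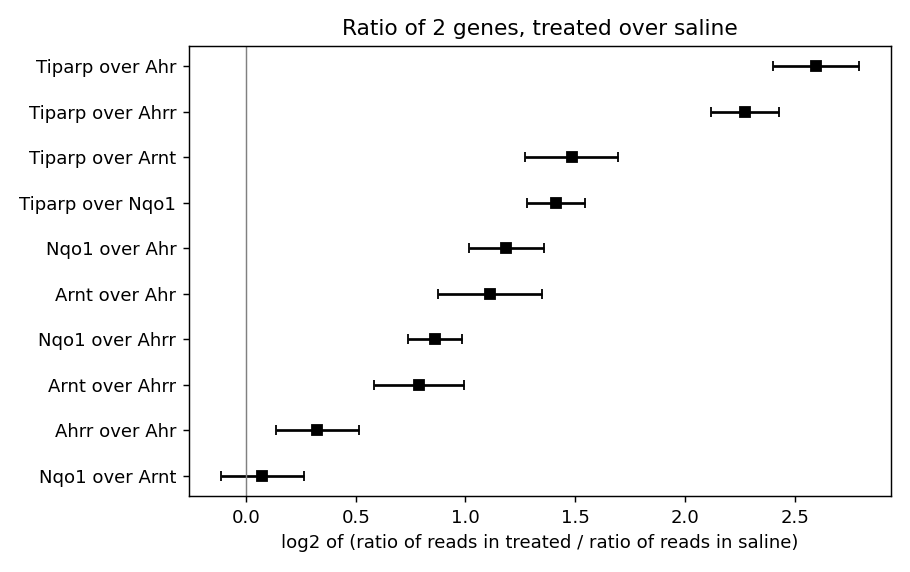
For each of the 10 pairs, the log2 of the ratio of reads in the treated library over the same ratio in the saline library, with exact conditional 95% intervals. The 4 pairs with Tiparp lie highest, and Nqo1 over Arnt is the one whose interval crosses 0.

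In the authors' deposited table none of the transcripts of the 6 genes is among the 57 selected. Tiparp has the lowest p-value of the set in the authors' deposited table, 0.066, which ranks 167 among 20367 transcripts, with an adjusted p-value of 0.92. The authors' deposited table gives Ahr a p-value of 0.105 and Ahrr one of 0.142, both with that same adjusted value, which is also the lowest adjusted value of the whole table. The sources used here do not say how a p-value was formed from 1 library per group.

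The genes nearest in pattern were taken as those with the smallest distance between log2(normalised count + 1) values over the 2 libraries, a likeness that rests on 2 values. Nearest to Tiparp were Tfrc, the transferrin receptor, with a log2 fold of 1.56, and Ipo7, a nuclear import receptor, with 1.46. For Ahr they were Slc6a12 (log2 fold -1.05) and Cnksr3 (-1.32), and for Ahrr they were Rapgef2 (-0.82) and Ppp6r1 (-0.69). Those nearest to Arnt were Mrpl17 (0.0042) and Amot (0.04), and those nearest to Nqo1 were Hdlbp (-0.02) and Tuba1b (-0.02).

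Folds of the nearest genes on the chromosome were set beside those of the set, by gene order in GRCr8 and for symbols with at least 20 reads. The 10 nearest to Tiparp had a median log2 fold of 0.65 (range -0.26 to 1.62), 7 of 10 above 0, with Kcnab1, a potassium channel subunit, at 1.49 and Ssr3, a subunit of the translocon-associated complex, at 0.73. The 10 nearest to Ahr had a median of 0.27 (range -2.72 to 1.69) and those nearest to Ahrr one of 0.15 (range -1.55 to 1.07), both on the other side of 0 from the gene itself. Around Arnt the median was -0.27 and around Nqo1 it was -0.16. Tiparp thus lay above 0 together with most of its neighbours, and their part in its value was not tested.

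Of the proteins that hold, move or assist the receptor, the inducible HSP90 was higher and most coactivators lay below 0 but within 2-fold. In the list of chaperones and cofactors 3 of 25 genes were higher, or 12%, and 1 lower, or 4%. Over all symbols these shares were 12.1% and 19.1%, so the share of higher genes was close to that of all symbols. Among the 18 well covered genes of the list 2 were higher and 1 lower, beside 4.49% and 5.52% of well covered symbols. Over the 25 genes the median log2 fold was -0.28. The inducible HSP90 gene Hsp90aa1 had 1989 reads in treated cells and 713 in saline cells, a log2 fold of 2.41 (interval 2.29 to 2.53). Hsp90ab1, with the most reads in the list, was at 0.20 and the co-chaperone Ptges3, known as p23, at 0.99. The other higher genes were Relb, an NF-kappaB subunit that can pair with the receptor, at 1.73, and Cul4b, the scaffold of a ubiquitin ligase the receptor can join, at 1.22. The coactivators Ncoa2, Ncoa3, Ep300 and Crebbp lay between -0.73 and -0.88, short of 2-fold, and Ddb1, the adaptor of that ligase, was at -0.24.

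The wider list of receptor targets held 32 genes, of which 18 passed the minimum, 4 of them members of the set. By the size rule 4 of 18 were higher, or 22.2%, and 2 lower, or 11.1%, beside 12.1% and 19.1% of all symbols, with a median of 0.11, or 0.18 with genes at 0 reads placed at their floor. Of these 6 calls 3 passed the minimum through 1 library alone and did not reach 2-fold once the floor was used: Cyp1b1, for which no fold is given, Pdk4 and Hes1. Pdk4 had 2 reads in treated cells and 0 in saline cells, Hes1 had 3 in treated cells and 0 in saline cells, and Ido2, counted as lower, had 1 in treated cells and 9 in saline cells, with an interval that held 0. Il1b, the inflammatory cytokine, had 11 reads in treated cells and 0 in saline cells. It was 6.98-fold higher when 3 reads are taken as the floor for saline cells, and the interval of its log2 fold began at 2.26. Among the 11 well covered targets, Tiparp alone was higher and 0 were lower, beside 4.49% and 5.52% of well covered symbols. Ptgs2, the inducible cyclooxygenase, with the most reads in the list, was at 0.06, the amino acid transporter Slc7a5 at -0.54, the cell cycle inhibitor Cdkn1a at -0.14 and Nfe2l2, which encodes NRF2, at 0.15.

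The family of bHLH-PAS transcription factors, to which Ahr, Arnt and Ahrr belong, had the largest share of lower genes among the 7 pathway lists. Of 11 genes 5 were lower, or 45.5% beside 19.1% of all symbols, 1 was higher, or 9.09% beside 12.1%, and the median log2 fold was -0.80 beside -0.07 over all symbols. Apart from Ahr, the lower ones had few reads: the clock genes Arntl (19 reads in treated cells and 153 in saline cells, log2 fold -2.05), Per2 (8 in treated cells and 86 in saline cells, -2.41) and Per3 (10 in treated cells and 65 in saline cells, -1.71). Npas1 had 0 reads in treated cells and 14 in saline cells. Its fold was 2.45 on the low side when 3 reads are taken as the floor for treated cells. The interval of its log2 fold reached up to -0.80, inside 2-fold. Sim2, counted as higher, had 2 reads in treated cells and 0 in saline cells and did not reach 2-fold once the floor was used. The better covered Per1 was at -0.64, Hif1a, the other main partner of ARNT, at 0.43, and Clock at 0.68. Among the 5 well covered members 0 were higher and 1 lower, Ahr, beside 4.49% and 5.52% of well covered symbols.

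Tiparp also belongs to the ADP-ribosyltransferases, which were followed as a further list. Of the list's 20 genes, hydrolases included, 2 were higher, or 10%, and 1 lower, or 5%, beside 12.1% and 19.1% of all symbols. The median log2 fold was 0.05. Tardbp, at 0.52, is among the 20 though it encodes an RNA-binding protein and is neither a transferase nor a hydrolase of ADP-ribose. Without Tardbp the middle fold is that of Parp8, at -0.04. The 2 higher genes were Tiparp and Parp9, at 1.14 (interval 0.60 to 1.72, 61 reads in treated cells and 52 in saline cells). Parp12, a relative that also transfers single ADP-ribose units, had 0 reads in treated cells and 44 in saline cells. It was 7.70-fold lower with 3 reads as the floor for treated cells, and the interval of its log2 fold reached up to -2.59. Parp1, the DNA damage sensor, was at -0.14.

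Nqo1 stands here also among targets of NRF2, of which 0 of 26 were higher and 2, or 7.69%, lower, beside 12.1% and 19.1% of all symbols, with a median of -0.08. The lower ones were Srxn1, which repairs peroxiredoxins, at -1.79 (7 reads in treated cells and 49 in saline cells), and the exporter Abcc4 at -3.05 (2 in treated cells and 40 in saline cells, interval -6.49 to -1.45). Several members lay close under 2-fold higher, among them ferritin heavy chain Fth1 at 0.93, thioredoxin Txn1 at 0.93 and peroxiredoxin Prdx1 at 0.98. Mafg, a small MAF partner of NRF2, lay just short of 2-fold lower, at -0.999 (93 reads in treated cells and 355 in saline cells), whereas Hmox1, Gclc and Txnrd1 lay between -0.31 and -0.13. In the list of genes induced through HIF1A and ARNT, 1 of 19 was higher, or 5.26%, and 2 were lower, or 10.5%, both under the shares of all symbols (12.1% and 19.1%), with a median of -0.01. These were adrenomedullin Adm at 1.33 (22 reads in treated cells and 16 in saline cells), Ddit4, an inhibitor of mTORC1, at -1.53 and hexokinase Hk2 at -1.12. Among the list's 14 well covered genes, 0 were higher and 2 lower, Ddit4 and Hk2, beside 4.49% and 5.52% of well covered symbols. The glycolytic enzymes Aldoa and Eno1, with the most reads in that list, were at -0.11 and -0.01.

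Of the enzymes that process foreign compounds 26 passed the minimum, 2 higher, or 7.69%, and 5 lower, or 19.2%, beside 12.1% and 19.1% of all symbols, with a median of -0.07, or -0.02 with genes at 0 reads placed at their floor. The share of lower genes was thus close to the background. Of the lower ones 4 had 0 reads in treated cells and did not reach 2-fold once the floor was used: Cyp1b1, Ephx2, Sult1a1 and Nat1, with 4 to 11 reads in the saline library. Gsto1, the fifth, had 5 reads in treated cells and 21 in saline cells, with an interval that held 0. The glutathione transferase Gstt2 was at 1.76 (interval 1.16 to 2.45, 60 reads in treated cells and 33 in saline cells), and Cyp2e1 at 1.15 on 17 reads in treated cells and 14 in saline cells. Por, the reductase that supplies electrons to the cytochromes, was at -0.65. Of the 11 well covered enzymes 0 were higher and 0 lower, beside 4.49% and 5.52% of well covered symbols.

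**Figure D5:**
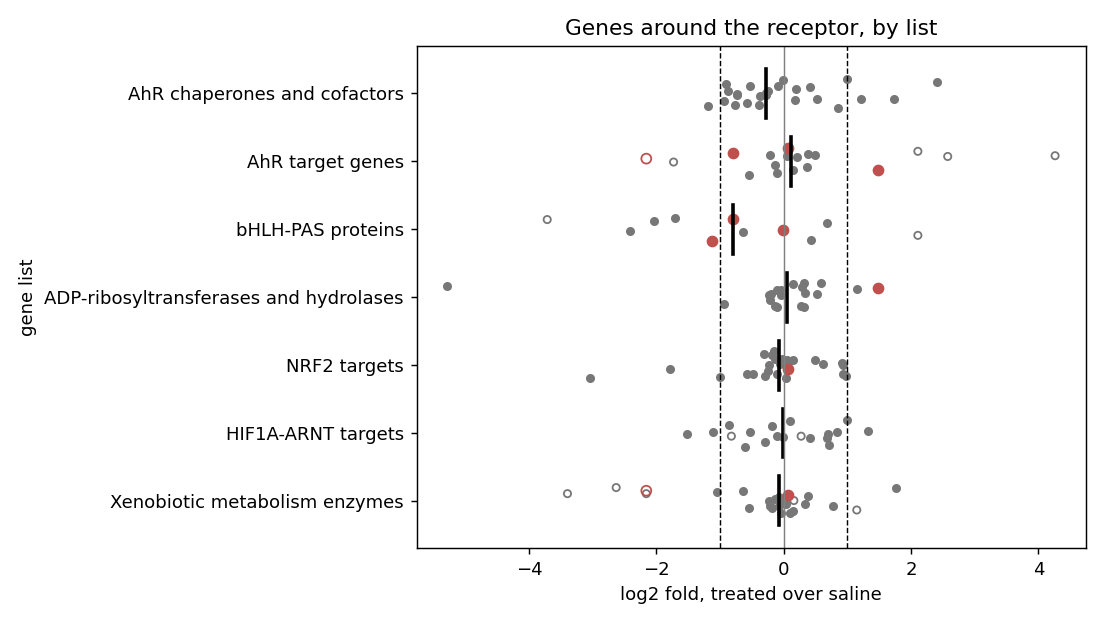
Log2 fold of the treated over the saline library for each gene of the 7 lists that passed the minimum; red points are genes of the set of 6, open points have fewer than 20 reads in both libraries, black bars are list medians over all points and dashed lines mark 2-fold. Tiparp is the red point past the right dashed line, and the median of the bHLH-PAS proteins, -0.80, lies lowest.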

How the data were processed

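Libraries were strand-specific (TruSeq), per the labels' protocols. STAR 2.5, Cuffnorm, DESeq 1.22.1 and FastQC are named, with no role, in the submitters' processing notes, and no build or annotation release is. The values are the authors' deposited log2 normalised counts per transcript. Once the log2 was undone and 1 taken off, 100% of them were whole multiples of 1 step within 1e-06 reads in each library, which gave the reads and size factors of 0.605 (treated) and 1.15 (saline). The authors' deposited p-values are quoted as listed. A further 6 columns that repeat these values were not used. The treated column was matched to its sample by the 100 in the sample's title, which no other title holds.

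Transcripts were summed by symbol; 1276 transcripts without one were left out. The 6 genes, the 11 lists and all rules were chosen with earlier results of these data known. Of 227 list entries 167 matched by symbol, 1 by synonym and 59 not. Named list genes are those past 2-fold with at least 20 reads in 1 library (up to 4 each way) and the 2 highest means; others named were chosen after their values were seen, and some genes that the rule takes are left out. Fold intervals are Clopper-Pearson. Reads are not independent molecules, so all intervals and floors cover counting error only. A fold taken at a floor leaves out the counting error of the other library. Depth sets the precision: 397 reads for Arnt in treated cells left an interval of -0.19 to 0.17. Alternatives were 2 pseudocounts, 4 scalings, other filters and other transcript sums. Scripts were checked on simulated data. Promoters are RefSeq's; 6 of 6 genes matched. The work used SciPy 1.17.1, pandas 2.3.3 and NumPy 2.4.6 under Python 3.11.15, with Matplotlib 3.10.9 for figures.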

Additional observations from a re-analysis of the deposited data

How the results depend on the processing

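No paired analysis was possible because each group is 1 library. Over 2 other pseudocounts, 4 other scalings, the highest transcript alone and protein coding transcripts alone, the log2 fold ranged from -1.18 to -1.05 for Ahr, -0.86 to -0.73 for Ahrr, 1.42 to 1.54 for Tiparp, 0.01 to 0.13 for Nqo1 and -0.07 to 0.06 for Arnt, whose sign was not stable. Of these 40 values 39 stayed within the counting interval; Nqo1 reached 0.13 with the median fold of expressed symbols set to 0. All 40 values of the 10 pair differences stayed within theirs. Counts of genes moved more. A minimum of 5 left 1894 symbols lower, 2 receptor targets higher and 1 lower, 0 bHLH-PAS genes higher and 3 xenobiotic enzymes lower. A minimum of 50 left 707 symbols higher and 813 lower, 1 target higher and 0 lower, 0 bHLH-PAS and 0 HIF1A-ARNT genes higher, 0 ADP-ribosyltransferases and 0 NRF2 targets lower, and 1 xenobiotic enzyme higher and 0 lower. A pseudocount of 5 gave 1023 symbols higher and 1650 lower, 2 targets higher and 0 lower, 0 bHLH-PAS genes higher, and 1 xenobiotic enzyme higher and 2 lower. With at least 500 reads, chosen after the data were examined, 189 symbols were higher and 232 lower, with 1 target higher and 0 lower, 0 bHLH-PAS genes higher and 1 lower, 1 ADP-ribosyltransferase higher and 0 lower, 0 NRF2 targets lower, 0 HIF1A-ARNT genes higher, and 0 xenobiotic enzymes either way. The median of ratios gave 1 NRF2 target and 2 HIF1A-ARNT genes higher. These filters test fewer genes by construction; for the pseudocount and scaling the cause was not tested.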
